A study of Rattus norvegicus with 6 samples.

Results

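*Notch1*, *Lama5* and *Cdh2* were measured by 3 of the 38733 probes that had a value on all 6 arrays, in bone marrow mesenchymal stem cells (BMSCs) of Sprague-Dawley rats. Under hypoxia the *Notch1* and *Lama5* probes read 7.32-fold and 5.18-fold lower than under normoxia, whereas the *Cdh2* probe read 1.17-fold higher with overlapping groups. The 3 probes were chosen by earlier results of this same comparison, so their differences are a description and carry no test. *Notch1* and *Lama5* stand in a list of changed genes whose values are those of these arrays, and the *Cdh2* probe, which has a transcript accession and 10 spots, was set beside them. *Notch1* and *Lama5* owe their names to the study's supplementary list, whose values for them met those of 1 probe each; that list heads the columns by vector and overexpression, so groups were taken from the sample labels.

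The study asked how BMSCs transplanted into oxygen-poor necrotic bone of the femoral head respond to hypoxia. Normoxia was 20% oxygen for 48 h (3 arrays) and hypoxia was 0% oxygen for 48 h (3 arrays). The methods describe cells flushed from rat marrow and grown in serum-containing medium. The sample titles and treatment labels name no vector, whereas the supplementary list heads values of these arrays by vector and overexpression. Whether the cells were unmodified could not be checked here. The labels call the 3 samples of a group biological replicates without saying whether each came from a different animal, so any p-value measures the spread between these samples. Total RNA was labelled with 1 dye and hybridized to 1 array per sample.

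NOTCH1 is a receptor of the cell surface. When a Delta-like or Jagged ligand on a neighbouring cell binds it, γ-secretase frees its intracellular domain, which enters the nucleus and activates genes together with RBPJ. In bone marrow, Notch signalling is known for holding mesenchymal progenitors back from osteoblast differentiation. Laminin α5, the product of *Lama5*, joins a β and a γ chain to form laminins of the basement membrane, the sheet of matrix that cells grip through integrins. N-cadherin, the product of *Cdh2*, binds calcium-dependently to N-cadherin of the next cell and is anchored to actin through catenins. The receptor, the matrix chain and the adhesion molecule are all surface or matrix contacts through which a stromal cell senses its niche.

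The promoters of *Notch1* and *Lama5* are shown because both probes read far lower in cells without oxygen, and low oxygen acts on many genes through HIF, a factor that binds ACGTG or GCGTG. Each sequence covers 250 bases before and 50 bases from the transcription start in RefSeq's GRCr8 assembly, read 5′ to 3′ on the minus strand. Capitals mark GCGTG or its reverse complement. *Notch1* lies at chr3:29721564-29721863 and *Lama5* at chr3:187695925-187696224. A promoter entry was matched for 2 of the 3 genes, *Cdh2* being the third gene.
Notch1: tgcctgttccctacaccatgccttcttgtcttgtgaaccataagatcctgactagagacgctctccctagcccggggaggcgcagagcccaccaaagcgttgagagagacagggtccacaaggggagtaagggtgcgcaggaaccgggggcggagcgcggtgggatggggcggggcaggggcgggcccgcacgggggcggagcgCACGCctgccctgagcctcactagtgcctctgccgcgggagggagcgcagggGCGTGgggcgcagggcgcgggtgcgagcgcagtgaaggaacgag
Lama5: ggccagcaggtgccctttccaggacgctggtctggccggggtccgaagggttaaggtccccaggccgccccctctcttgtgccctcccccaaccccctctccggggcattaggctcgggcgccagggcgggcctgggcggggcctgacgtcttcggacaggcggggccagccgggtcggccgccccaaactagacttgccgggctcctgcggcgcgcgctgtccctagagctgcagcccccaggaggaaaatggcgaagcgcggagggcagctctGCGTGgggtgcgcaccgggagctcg

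Both windows were rich in G and C, at 69.0% for *Notch1* and 73.0% for *Lama5* against a median of 51.7% over the 33469 promoters in the table. GCGTG occurred at 2 places in the *Notch1* window, first at base -46 on the opposite strand and then at base 7 after the start, and at 1 place in *Lama5*, at base 26. ACGTG was in neither. Either core was held by 41.6% of all promoter windows, so its presence did not set these genes apart. GGGCGG, the GC box of Sp1, occurred 4 times in each window and in 33.1% of all windows. TGGGAA, the core that RBPJ binds, occurred in neither and in 25.7% of all. CACCTG, an E-box of Snail and Zeb, occurred once in *Lama5*, on the opposite strand, and in 18.8% of all. Both strands were searched for each motif, and GCGTG matches overlapped none of the other motifs. These matches are strings of letters and were not tested as binding sites.

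The arrays differed in brightness and in the scan they were read in. Median intensity ran from 23.9 to 54.2, median local background from 14 to 22.5, and 74.3% to 85.8% of probes were detected per array. The 3 normoxia arrays and hypoxia replicate 1 were read in the first scan, and hypoxia replicates 2 and 3 in the second. Each difference is therefore also given for hypoxia replicate 1 alone, within the first scan. For hypoxia replicates 2 and 3, scan and hypoxia cannot be told apart. No list of BMSC markers fixed for this work had a named probe, so the cell type could not be checked against its markers.

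The *Notch1* probe gave normalized log2 levels of 8.25, 8.13 and 8.21 on normoxia replicates 1 to 3. On hypoxia replicates 1 to 3 it gave 5.87, 5.02 and 5.09. The groups did not overlap, with 2.26 log2 units between the nearest pair, and hypoxia replicate 1 was the highest of its group. Normoxia averaged 8.20 ± 0.0625 (SD, n = 3), against 5.33 ± 0.472 (SD, n = 3) on the hypoxia arrays. The difference was -2.87 on the log2 scale, which left 13.7% of the normoxia level. Between arrays of the same number it was -2.38, -3.11 and -3.13. It was larger than the spread between replicates of either group.

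**Figure D1:**
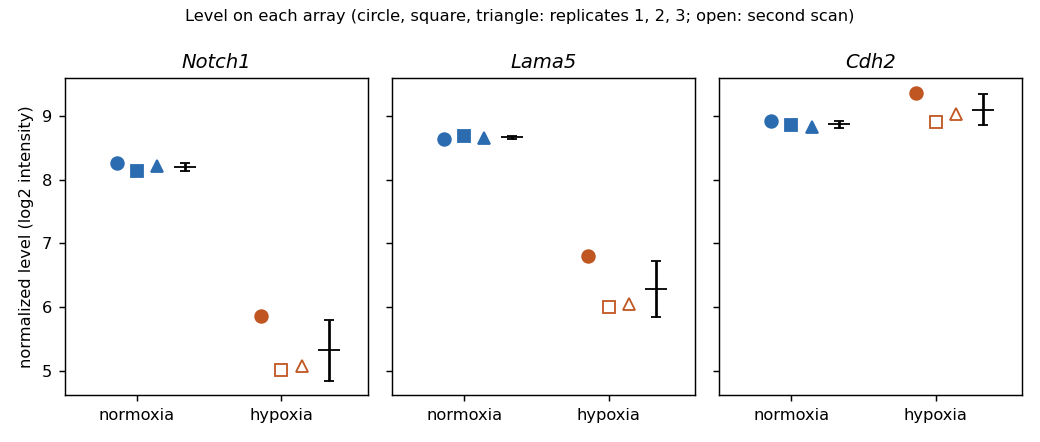
Normalized log2 level of each probe (vertical axis) on the 3 normoxia and 3 hypoxia arrays, with bars for mean ± SD; circles, squares and triangles are replicates 1, 2 and 3, and open symbols are the second scan. The hypoxia arrays lie far below normoxia for Notch1 and Lama5 and overlap it for Cdh2, and hypoxia replicate 1 is the highest hypoxia array in each panel.

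Hypoxia replicate 1 alone, from the same scan as normoxia, read *Notch1* 5.02-fold below the normoxia mean. Hypoxia replicates 2 and 3 read it 8.83-fold below. After normalization the difference was thus present within the first scan at a smaller size, an order that depended on the scaling (below). Only 58 of the 30451 probes tested, 0.19%, had a lower difference than *Notch1*.

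*Lama5* gave normalized log2 levels of 8.64, 8.69 and 8.65 on normoxia replicates 1 to 3. Its levels on hypoxia replicates 1 to 3 were 6.80, 6.0 and 6.06. The groups again did not overlap, with a gap of 1.84 log2 units, and hypoxia replicate 1 was again the highest of its group. The normoxia mean was 8.66 ± 0.0266 (SD, n = 3), and the hypoxia mean was 6.29 ± 0.443 (SD, n = 3). The log2 difference of -2.37 left 19.3% of the normoxia level, and exceeded the spread between replicates of either group. Same-numbered arrays differed by -1.84, -2.69 and -2.59. Within the first scan *Lama5* was 3.63-fold lower, and on hypoxia replicates 2 and 3 it was 6.18-fold lower. A lower difference was found for 127 probes tested, 0.417%.

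*Cdh2* gave normalized log2 levels of 8.92, 8.86 and 8.81 on normoxia replicates 1 to 3. On hypoxia replicates 1 to 3 the levels were 9.36, 8.90 and 9.03. The groups overlapped, since hypoxia replicate 2 lay below normoxia replicate 1. It averaged 8.86 ± 0.0523 (SD, n = 3) at 20% oxygen, compared with 9.09 ± 0.236 (SD, n = 3) at 0%. The log2 difference of 0.23 was smaller than the SD of the hypoxia arrays. Same-numbered arrays differed by 0.44, 0.04 and 0.21. Hypoxia replicate 1 lay 0.49 above the normoxia mean and hypoxia replicates 2 and 3 averaged 0.10 above it, so the normalized difference was largest on 1 array. Without normalization it was largest on hypoxia replicate 2, at 0.255. Of all probes tested, 65.5% had a larger difference in either direction.

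Beside these values stand the counts over all probes. Every hypoxia array was lower than every normoxia array for 22.2% of probes tested, and for 2 of the 3 probes described here. A fall of over 2-fold in the group means, with no p-value, was seen for 5.00% of probes tested and for the same 2 of 3. With limma at an adjusted p under 0.05 and over 2-fold, 2.71% of probes tested were lower and 0.923% higher under hypoxia. Nothing is read from these shares, because the probes were chosen by this comparison. All 3 probes were detected on 6 of 6 arrays, so none entered through 1 group alone.

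**Figure D2:**
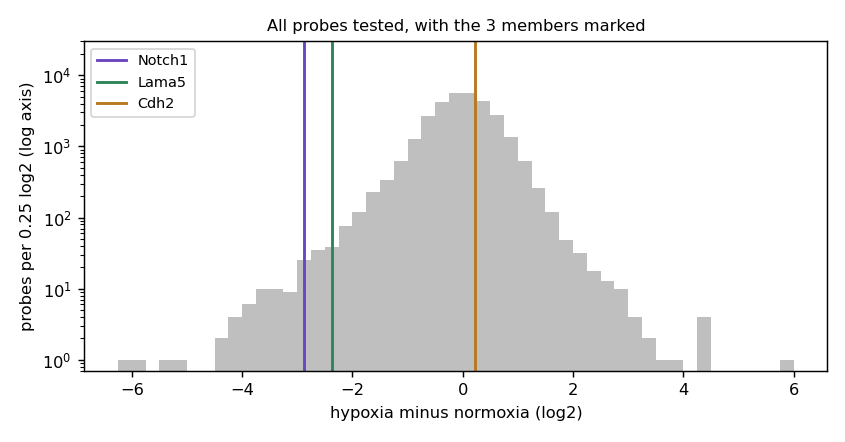
Number of probes tested (vertical log axis) by hypoxia minus normoxia log2 difference (horizontal axis, bins of 0.25), with a line for each of the 3 probes. Notch1 and Lama5 lie in the lower tail at -2.87 and -2.37, and Cdh2 lies near the centre at 0.23.

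Before normalization, the *Notch1* spot had an intensity of 378, 287 and 234 on normoxia replicates 1 to 3. On hypoxia replicates 1 to 3 it was 43.2, 50.2 and 44.6, beside a local background of 14, 22 and 17. These intensities already have the background removed, and under hypoxia this net signal was 2.28 to 3.08 times the local background, against 18 to 23.6 times under normoxia. The *Lama5* spot had an intensity of 504, 434 and 321 under normoxia and of 83.8, 92.7 and 80.3 under hypoxia. Its net signal was 3.49 to 6.45 times the local background under hypoxia. The *Cdh2* probe averaged 621, 486 and 362 under normoxia and 527, 571 and 503 under hypoxia. Brightness depends on the probe as well as the transcript, so these intensities give no order of abundance among the 3 genes.

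**Figure D3:**
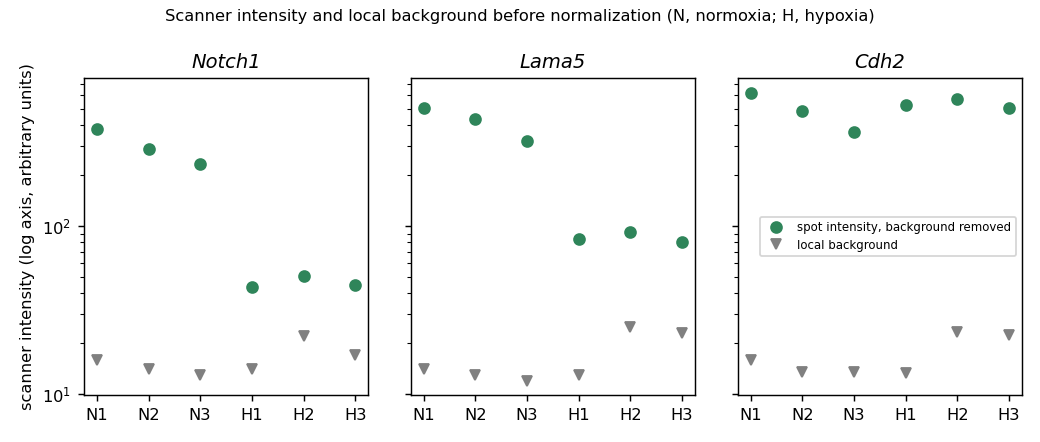
Scanner intensity after removal of background (circles) and local background (triangles) on a log axis for each array, with N for normoxia and H for hypoxia. Notch1 reads 43.2 to 50.2 on the hypoxia arrays over and above local backgrounds of 14 to 22, while Cdh2 runs from 362 to 621.

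The order among hypoxia arrays depended on the scaling. In unnormalized log2 intensity the 3 hypoxia arrays lay close together, with SDs of 0.115 for *Notch1*, 0.106 for *Lama5* and 0.0914 for *Cdh2*. Measured from the unnormalized normoxia mean, *Notch1* lay at -2.77, -2.55 and -2.72 on hypoxia replicates 1 to 3. *Lama5* lay at -2.3, -2.15 and -2.36, and *Cdh2* at 0.14, 0.255 and 0.0738. Without normalization, hypoxia replicate 1 was thus the highest of its group for none of the 3 probes. After quantile normalization, which brings the brighter second-scan arrays down, the SDs were 0.472, 0.443 and 0.236. Hypoxia replicate 1 then lay 0.82 log2 units above replicates 2 and 3 for *Notch1*, 0.77 for *Lama5* and 0.39 for *Cdh2*. The normoxia arrays moved the other way, from an unnormalized SD of 0.348 to 0.0625 for *Notch1*.

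The differences of *Notch1* and *Lama5* were smallest with normexp correction, which here also adds an offset of 50, about as much as the *Notch1* spot read under hypoxia. *Notch1* then read 3.64-fold lower and *Lama5* 3.58-fold lower. Without background subtraction they read 5.67-fold and 4.72-fold lower, and before the scanner software's detrending 7.80-fold and 5.38-fold lower. Both settings moved the log2 differences by less than the SD of the differences between same-numbered arrays. Measured from its own normoxia mean, *Notch1* lay further down than *Lama5*, with gaps of -0.47, -0.52 and -0.51 log2 units on hypoxia replicates 1 to 3. The mean gap of -0.50 was -0.02 with normexp and its offset, -0.27 without background subtraction and -0.54 before detrending.

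**Figure D4:**
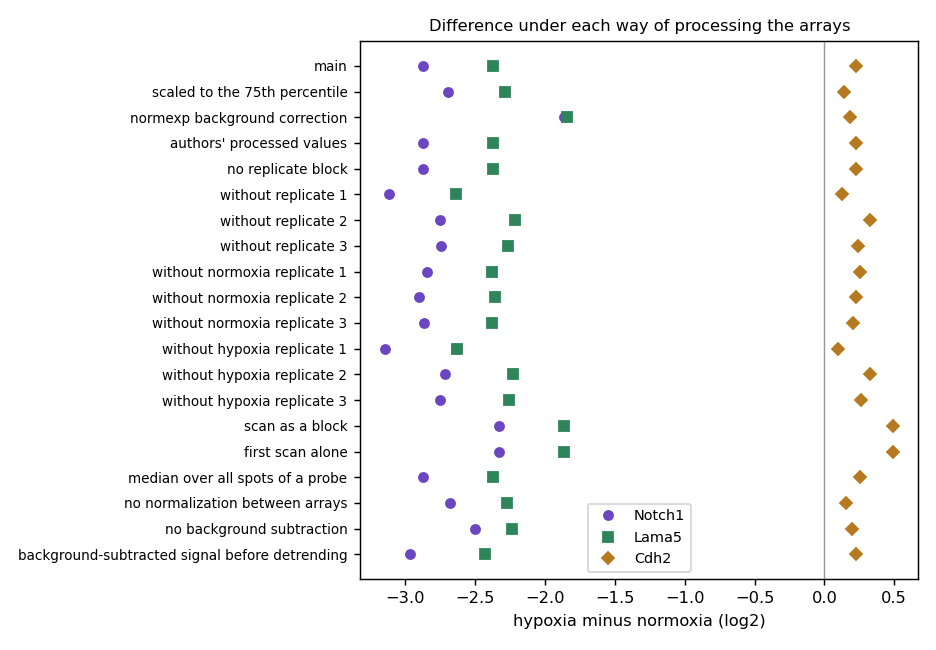
Hypoxia minus normoxia log2 difference of each probe (horizontal axis) under each way of processing the arrays (rows; main is the processing used in the text). Notch1 stays between -3.14 and -1.86, Lama5 between -2.64 and -1.84, and Cdh2 between 0.10 and 0.49, and the Notch1 and Lama5 points meet under normexp.

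The *Cdh2* probe was printed as 10 spots per array, which shows how exactly the array reads 1 transcript. Across its 10 spots the unnormalized log2 intensity had an SD of 0.0626 to 0.114 per array, or 4.31% to 7.95% of the mean intensity. On the normalized log2 scale, each spot gave a hypoxia minus normoxia difference between 0.17 and 0.30, with a median of 0.24, and 10 of 10 were above 0. The spots share the same RNA and are not replicates of hypoxia, so their agreement describes the print and not the cells. Of 44 tested probes with 10 spots, 32 had a larger difference than *Cdh2* in either direction. *Notch1* and *Lama5* had 1 spot each, so no such check exists for them.

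**Figure D5:**
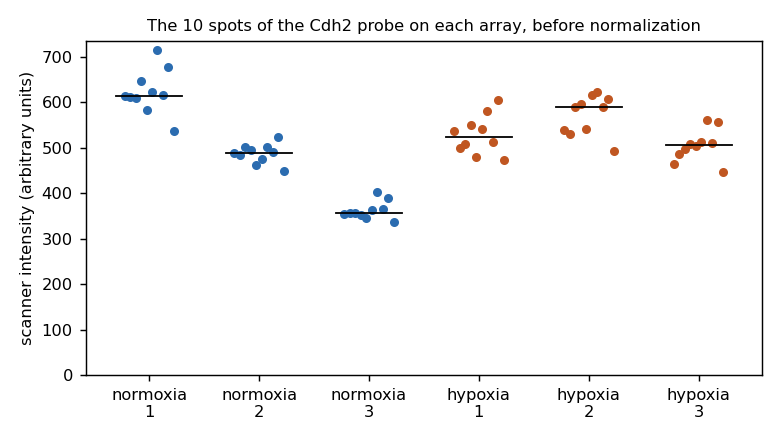
Scanner intensity of the 10 Cdh2 spots on each array before normalization, with a line at the median. Spots of an array cluster together, normoxia replicate 1 is the brightest normoxia array and replicate 3 the dimmest, and the groups overlap.

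The named probes whose 6 values lay nearest to each of the 3 were found by the root mean square (RMS) difference over the 6 arrays, each value taken from the probe's own normoxia mean. They were sought among 87 other named probes, of which 61 carry a name only because the study listed them as changed, with values that are those of these arrays, 33 of them as long non-coding RNAs (LncRNAs). Nearness here is therefore no sign of anything shared. A LncRNA listed under the symbol *Slfn4* was nearest to *Notch1* (RMS 0.183 log2 units, difference -2.72). A LncRNA listed under *Ccdc150* (0.218), the RNA-binding protein gene *Celf3* (0.221), a LncRNA listed under *Tnn* (0.234) and *Id2* (0.295) followed. The values under *Slfn4*, *Ccdc150* and *Tnn* are not shown to be those of the coding genes of these names. *Id2*, an inhibitor of basic helix-loop-helix factors, was the nearest to *Lama5* at 0.124. Next came *Gpr34*, a G-protein-coupled receptor of microglia and macrophages (0.160), *Gucy2c*, a guanylate cyclase receptor (0.195), and the LncRNAs LOC102550366 (0.197) and LOC102547591 (0.222). *Id2* thus stood in both sets. Between *Notch1* and *Lama5* themselves the RMS difference was 0.357.

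For *Cdh2* the nearest named probes were *Nat1*, an arylamine N-acetyltransferase (0.154), *Ndfip1*, an adaptor of Nedd4 ubiquitin ligases (0.169), *Eif4b*, a translation initiation factor (0.180), *Ndfip2* (0.207) and *Pop7* (0.377). All 5 had a higher value on hypoxia replicate 1 than on replicates 2 and 3, as *Cdh2* did. There were 1631 probes tested nearer to *Cdh2* than *Nat1* was, so its pattern was a common one on these arrays. *Cdh2* and *Notch1* lay 2.20 log2 units apart by the same measure, and *Cdh2* and *Lama5* 1.84.

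The other genes of the 3 pathways could hardly be seen, because few probes carry a name. Of the other 45 genes of the Notch list (ligands, receptors, γ-secretase, targets), 0 had a named probe, and likewise 0 of the other 24 cadherin and adherens junction genes. Among the other 34 genes of laminins, basement membrane and laminin receptors, 1 had one. This was *Tgfbi*, a secreted matrix protein that binds collagens and integrins, which fell by 1.68 on the log2 scale (limma, adjusted p = 0.017). It has a name here only through the list of changed genes with values of these arrays, so its call is not independent of how it became visible. Its mean log2 level was 13.35 ± 0.15 under normoxia and 11.66 ± 0.116 under hypoxia (SD, n = 3). It was lower past the threshold under the 16 alternative limma fits run for it, 2 of which (scan as a block, first scan alone) have hypoxia replicate 1 as the lone hypoxia array of the first scan and assume that it varies like the others. The methods' paired t-test called 0 probes lower after adjustment (924 at an unadjusted p under 0.05 and over 2-fold), so neither *Tgfbi* nor any gene named as lower here passes it after adjustment.

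Markers of macrophages were lower under hypoxia beside *Notch1* and *Lama5*. Of 23 haematopoietic and macrophage genes, 3 had a named probe, and 3 of 3 were lower under hypoxia by limma, as were 2.71% of all probes tested. Their median log2 difference was -2.24 against -0.00225 over all probes tested. They were *C1qa*, a complement component of macrophages (-1.99, adjusted p = 0.0149), *Gpr34* (-2.24, adjusted p = 0.0111) and *Tifab* (-2.42, adjusted p = 0.016). With normexp, *Gpr34* no longer passed 2-fold, at -0.79. Summed over the 3 probes, the normalized intensity ran from 944 to 1257 under normoxia and from 268 to 280 under hypoxia, most of it from *C1qa*, the brightest of the 3 probes. The study listed these genes as changed under the vector and overexpression headings, with values that are those of the present arrays. The marker list was also chosen with earlier results of these data known. For both reasons their count is not independent. Of 13 endothelial, pericyte and smooth muscle markers and of 24 BMSC markers, 0 had a named probe. The methods describe typing passaged BMSCs by flow cytometry, with antibodies to CD45 and CD11b among others. The study reports a very high purity for the cells typed in this way. Whether the cultures put on these arrays were themselves typed could not be checked here. The part of macrophage RNA in the values of *Notch1* and *Lama5* was not tested. In RNA from a whole culture, fewer cells of a type and less RNA per cell cannot be told apart.

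Genes that HIF is known to raise did not rise among those with a name. Of 26 HIF targets, 3 had a named probe and 3 of 3 were lower under hypoxia by limma, beside 2.71% of all probes tested. Their median log2 difference was -1.97, against -0.00225 over all probes tested. *Ldha*, lactate dehydrogenase A of glycolysis, fell by 1.24 on the log2 scale (limma, adjusted p = 0.0287), to a mean log2 level of 10.86 ± 0.152 (SD, n = 3) under hypoxia. *Id2* fell by 2.49 (adjusted p = 0.0176) and *Kdm4b*, a histone demethylase, fell by 1.97 (adjusted p = 0.0238). *Id2* and *Kdm4b* are named only through the same vector and overexpression list of changed genes, so the count and the median are not independent. *Ldha* was named by its accession. The list of HIF targets was chosen with earlier results of these data known, so the call of *Ldha* is not independent either. *Ldha* lost its call without replicate 2 (adjusted p = 0.0891), and *Kdm4b* without normoxia replicate 1, normoxia replicate 3 or hypoxia replicate 2 (adjusted p = 0.0764, 0.0774 and 0.0618). Over the 16 alternative limma fits run for them, the adjusted p of *Ldha*, *Id2*, *Kdm4b*, *Tgfbi* and the 3 macrophage genes ranged from 9.11e-09 to 0.0891. The lowest value was that of *Tifab* in a fit without replicate 2, against 0.016 in the main limma fit. It came from fewer arrays and is not read as stronger evidence.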

How the data were processed

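The authors deposited, for each array, Agilent Feature Extraction output (version 11.0.1.1) with background-corrected intensity values that were not normalized between arrays, and a table of log2 values, quantile-normalized per the methods, which served as an alternative. Control spots and spots marked as outliers were dropped, the remaining spots of each probe were averaged as log2, and the arrays were quantile-normalized. Probes detected on at least 3 of 6 arrays, 30451 of 38733, were compared with limma 3.58.1 in R 4.3.3 (lmFit, eBayes, replicate number as a block, Benjamini-Hochberg adjustment over all probes), with calls at an adjusted p under 0.05 and over 2-fold. The fit was tested on simulated data. The block follows the paired test of the methods. Same-numbered arrays did not deviate together (correlations -0.193, -0.0641 and -0.0894).

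The array files pair probes with no gene symbol. *Cdh2* was named through a transcript accession in RefSeq's GRCr8 table, as were 30 of 48 probes with an accession. *Notch1*, *Lama5* and others (63 probes, 62 gene symbols) were named where the 6 values listed for a gene in the study's supplementary data met 1 probe of the authors' table to within 4.7e-05, the next probe being at least 0.104 away. Of these probes, 33 are listed as LncRNAs, and where such a probe bears a coding gene's symbol it was not counted as that gene. The columns of *Notch1* and *Lama5* there are headed vector and overexpression, yet hold the values of the hypoxia and normoxia arrays, so groups were taken from the sample labels alone. Which exon or isoform a probe reports is not given in the sources used here. Genes named in the text are the 3 members, genes of the lists with a named probe, and the 5 named probes nearest to each member. Members and lists were chosen with earlier results of these data known. Alternatives were 75th-percentile scaling, normexp, no normalization, no background subtraction, medians of spots, background-subtracted signal before detrending (chosen after seeing the data), the authors' table, other filters and tests, scan as a block, and leaving out arrays. Precision is limited by 3 arrays per group and, for dim spots, by background.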

Additional observations from a re-analysis of the deposited data

How the results depend on the processing

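The sign of the difference was kept under all 19 alternatives for *Notch1*, *Lama5* and *Cdh2*. Of these, 16, 16 and 17 moved it by less than the SD of the differences between same-numbered arrays (0.424, 0.461 and 0.201). With the scan as a block, or the first scan alone, the differences were -2.33, -1.86 and 0.49, and normexp gave -1.86 for *Notch1* and -1.84 for *Lama5*. Leaving out arrays gave -3.14 to -2.72, -2.64 to -2.22 and 0.10 to 0.33, the lowest *Cdh2* value being without hypoxia replicate 1.

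The counts over all probes, 281 higher and 826 lower, moved more. 75th-percentile scaling, which shifts the median of all probes by 0.16, gave 1243 and 919. Normexp gave 171 and 407, no filter 57 and 122, fold alone 1130 and 1524, and the scan as a block or the first scan alone 633 and 635 higher. The methods' paired t-test gave 1 and 0 after adjustment, and 327 and 924 unadjusted. Leaving out arrays gave 202 to 2669 higher and 500 to 2741 lower. The highest were without replicate 1 (2669 and 2741) and without hypoxia replicate 1 (2551 and 2683), and replicate 3 left 423 higher. Without normoxia replicates 1, 2 and 3 the lower counts were 500, 519 and 501. Without the replicate block the counts were 386 and 1150, and the differences of the 3 probes are the same by construction. The causes of these shifts were not tested.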
